A study of Mus musculus with 4 samples.

Results

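The genes of the p53 pathway and of the intrinsic and extrinsic routes to apoptosis were followed in mouse HT22 cells made to overexpress MEIS2. A fixed list of 40 symbols was read from the count table by gene name: p53 and its regulators, p53 targets, death receptors, BCL2 family members, and the caspases with the proteins that switch them on or off. All 40 were among the 56748 genes of the table, and 38 of them were among the 12802 genes with enough reads in the 4 libraries to be tested. The study has 4 libraries of poly(A)-selected RNA, 2 from a control HT22 line and 2 from an HT22 line overexpressing MEIS2. The labels name no vector, promoter or clone for the overexpressing line and no empty-vector treatment for the control. Nor do they tell whether replicates were grown apart, so p-values here reflect only differences among the libraries sequenced, possibly technical ones.

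HT22 cells are an immortalised mouse line of hippocampal neuronal origin, derived from HT4 cells, which were made with a simian virus large T antigen, a protein that binds p53. MEIS2 is a TALE homeobox protein that binds DNA as a transcription factor. The transcription factor p53, encoded by Trp53, is kept low by the ligase MDM2 and its partner MDM4, and is freed from MDM2 by the p19ARF product of Cdkn2a. Active p53 raises the transcription of genes that stop the cell cycle, such as Cdkn1a, and of genes that open the mitochondrial route to apoptosis, such as Bax and Bbc3. On that route, BAX and BAK1 permeabilise the outer mitochondrial membrane, prosurvival proteins such as BCL2, BCL-XL, BCL-W and MCL1 hold them back, and BH3-only proteins relieve that block. Released cytochrome c then joins APAF1 in the apoptosome, which activates caspase-9.

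Total counts ran from 15014017 to 16903967 per library, so a count of 3, taken as the floor of detection, was worth 0.179 to 0.195 CPM after TMM scaling, a limit that covers counting error only. Meis2, the check on the labels, had 245 and 319 control counts against 5182 and 5571 after overexpression. Its difference of 4.22 on the log2 scale (SE 0.34, adjusted p 6.41e-05) made it the only one of the 12802 tested genes past an adjusted p of 0.05. Of 10 neuronal markers, 5 had 0 counts in all libraries, Rbfox3 and Snap25 among them, and 3 were tested. Of those, Tubb3 measured 22.2 and 16.2 CPM in the controls and 17.1 and 11.9 CPM in the MEIS2 libraries. Eno2 measured 22.4 and 18.1 CPM against 20.8 and 17.6 CPM, and Map2 6.65 and 7.20 CPM against 8.27 and 18.2 CPM. The summed level of the list was 41.7 to 52.3 CPM in the controls and 46.7 to 47.9 CPM in the MEIS2 libraries. Prox1 and Neurod2, of 4 markers of hippocampal excitatory neurons, also had 0 counts throughout. The others were low, Camk2a at 1.73 to 2.61 CPM and Slc17a7 at 0.477 to 1.43 CPM over the libraries. The 6 fibroblast markers summed to 435.8 and 460.2 CPM in the controls and to 514.4 and 691.4 CPM in the MEIS2 libraries, with Thy1 at 0, and their part in the results below was not tested. The astrocyte, oligodendrocyte, microglia and endothelial lists each summed to at most 1.31 CPM in every library. In bulk RNA of this kind, fewer cells expressing a gene and less RNA per cell cannot be told apart.

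No member passed the threshold. Of the 38 tested, 0 had an adjusted p under 0.05 in edgeR's quasi-likelihood test, against 0.00781% of all tested genes, and the lowest adjusted p among them was 0.289. At an unadjusted p under 0.05 in the same test there were 2 of the 38 members, Apaf1 and Bcl2l2, beside 1306 of all 12802 tested genes. DESeq2 called 0 members past the adjusted threshold. With the replicate number as a block in edgeR, a pairing the labels do not give, 9 of the 38 members passed, beside 2795 of all 12802 tested genes. Of the tested members 21 had a higher and 17 a lower fitted level in the MEIS2 line, with a median log2 fold change of 0.068, where the median of all tested genes was 0.012. With libraries scaled by their size alone, 25 were higher and 13 lower, but the median of all tested genes was then itself 0.17. Both MEIS2 libraries lay above both controls for 10 members (26.3%) and below both for 7 (18.4%). Among all tested genes these shares were 22.6% and 19.1%, so the members' shares are near the background.

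**Figure D1:**
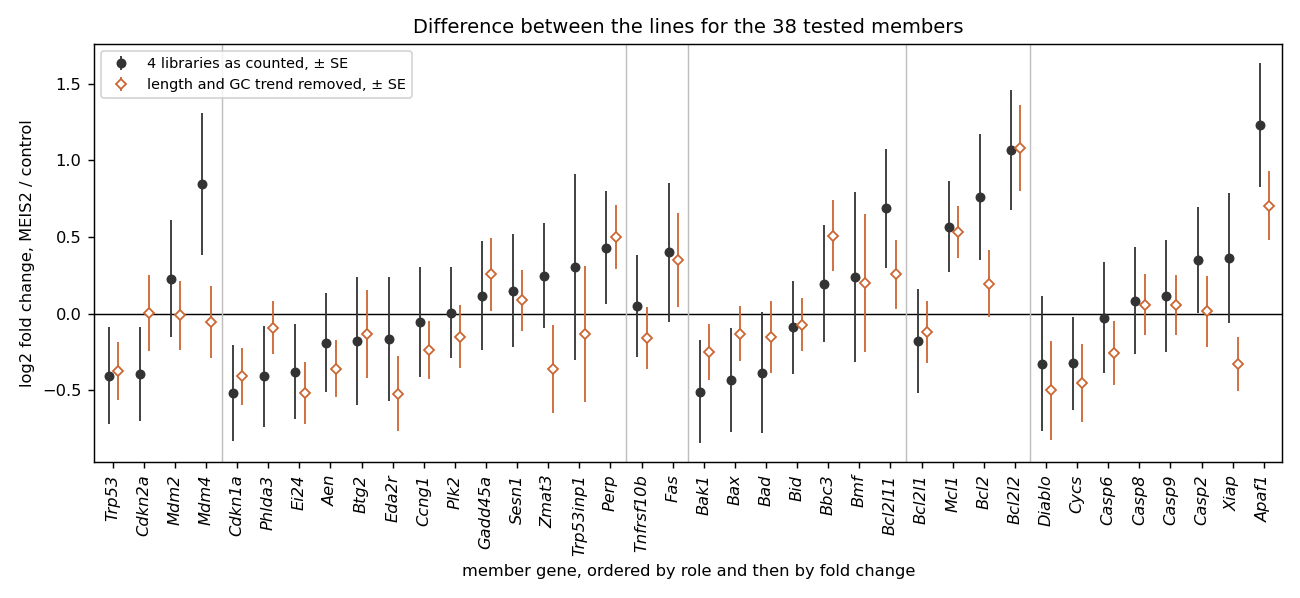
Log2 fold change of each tested member, MEIS2 line over control line, with its SE, from the 4 libraries as counted (filled circles) and after the trend of each library with length and GC content was removed (open diamonds). Grey lines part the role groups, from left to right p53 and its regulators, p53 targets, death receptors, BCL2 effectors and BH3-only genes, prosurvival BCL2 genes, and the apoptosome with the caspases. Apaf1 (1.23) and Bcl2l2 (1.07) stand highest, and Mdm4 moves from 0.84 to -0.05 when the trend is removed.

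Levels per length of the tested members ran from above 5.16% to above 98.9% of tested genes. The most abundant per length was Cdkn2a, which encodes the cell cycle inhibitor p16INK4a and p19ARF in different reading frames, products that a gene count does not separate. It stood at 391.0 and 396.2 CPM per kb in the controls and 305.9 and 293.9 CPM per kb in the MEIS2 libraries. The effector Bak1 (above 96.6% of tested genes), Trp53 (95.7%), Bax (94.8%), Phlda3 (91.3%) and Mcl1 (90.9%) followed on the same scale. At the other end, the BH3-only gene Bmf and the p53-induced nuclear protein gene Trp53inp1 were tested at means of 0.30 and 0.36 CPM per kb. Pmaip1, which encodes the BH3-only protein NOXA, had 0 counts in each library, and Bik, another BH3-only gene, had 0, 0, 3 and 0 counts, so both stayed at or under the floor in every library.

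**Figure D2:**
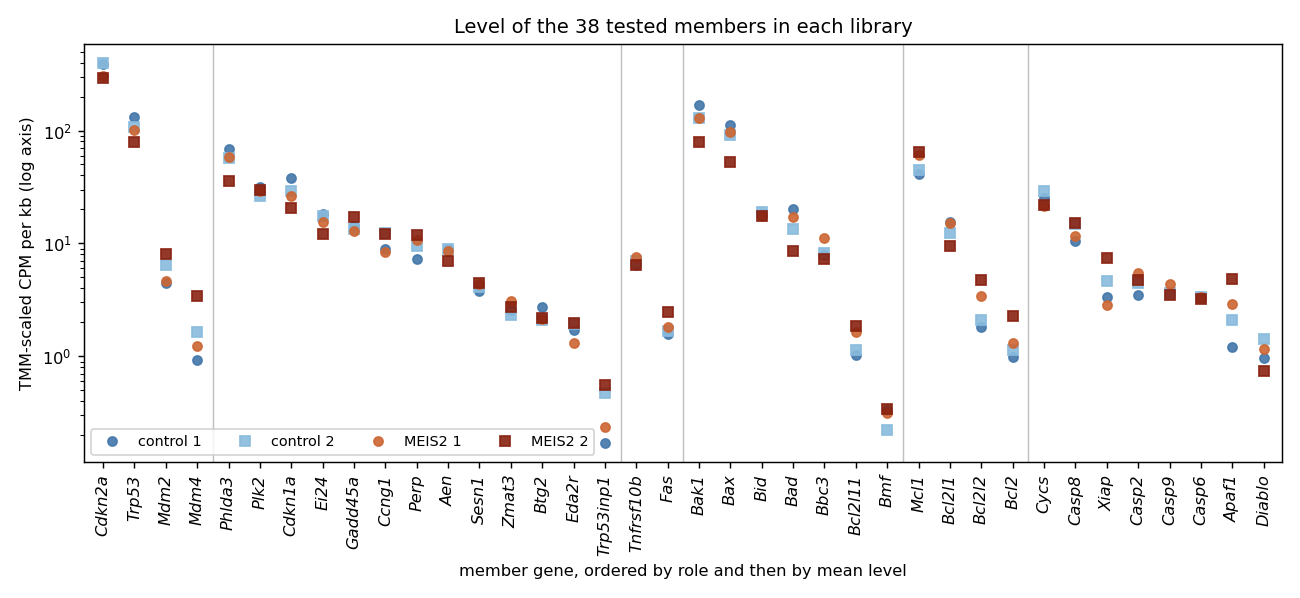
Level of each tested member in each library, in TMM-scaled CPM per kb of gene length on a log axis, ordered by role group (grey lines) and by mean level within it; circles are replicate 1 and squares replicate 2, blue for control and red for MEIS2. Cdkn2a, Bak1, Trp53 and Bax lie near or above 100 CPM per kb in the controls, and Mdm4 and Apaf1 are spread more widely than most between libraries.

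Promoter sequence was looked at because many of these genes are listed as direct p53 targets. The letters searched were those of the p53 consensus decamer, which reads the same on both strands. Windows from 250 bases before to 50 bases after the annotated start, from RefSeq on GRCm38.p6, were found for 34 of the 40 members, 49 windows in all. A match lay in 11 of the 49 windows (22.4%), belonging to 10 members, against 8.36% of all 32851 windows of that length. A pair of decamers at most 13 bases apart, in the manner of a full p53 site, lay in 1 member window, that of an upstream start of Cdkn1a, and in 0.0731% of all windows. The stretches below are those of the pathway's hub gene, its feedback ligase and 3 targets, in the direction of transcription, with the decamer in capitals:
Trp53: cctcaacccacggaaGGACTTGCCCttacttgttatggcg
Mdm2: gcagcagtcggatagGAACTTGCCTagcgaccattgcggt
Cdkn1a: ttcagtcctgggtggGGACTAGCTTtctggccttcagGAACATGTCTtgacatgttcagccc
Bax: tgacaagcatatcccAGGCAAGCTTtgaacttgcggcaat
Ei24: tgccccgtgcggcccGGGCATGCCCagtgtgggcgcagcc

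On GRCm38.p6 these stretches lie at chr11:69580269-69580308 (plus strand) for Trp53, chr10:117710920-117710959 (minus) for Mdm2, chr17:29090891-29090952 (plus) for Cdkn1a, chr7:45467075-45467114 (minus) for Bax and chr9:36797320-36797359 (minus) for Ei24. The first decamer base stood at -75, -186, -73, -201 and -10 relative to the start of the window's transcript, taken as 0, in that order. In Cdkn1a 12 bases part the decamers, and the window of the second annotated Cdkn1a start held no match. The 10 bases directly after the second Cdkn1a decamer differ from the consensus only in the first of them, so the exact search left them unmarked. Which of these decamers p53 binds was not tested. Bmf, Gadd45a, Aen, Sesn1 and Ccng1 were the other members with a match. A match is a string of letters and does not show binding. The 10 members with a match had log2 fold changes from -0.52 to 0.24 with a median of -0.12, 4 above and 6 below 0. The 24 tested members with a window and no match ran from -0.51 to 1.23, with a median of 0.047, 13 above and 11 below 0. The 4 tested members with no window were all above 0, with a median of 0.28. These are fold changes with the length and GC trend not removed, and the difference between the groups was not tested.

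Trp53 itself was lower in the MEIS2 line, by a difference that did not pass the threshold. It measured 533.3 and 433.9 CPM in control replicates 1 and 2, and 412.7 and 318.1 CPM in MEIS2 replicates 1 and 2. Both MEIS2 libraries lay below both controls, but the gap between the nearest libraries was smaller than the gap between replicates of either line. The log2 fold change was -0.40 (SE 0.32, adjusted p 0.623). It was -0.37 with the length and GC trend removed, and between -0.62 and -0.26 when any 1 library was left out. In the positions of the table, whose build no source used here gives, Trp53 (ENSMUSG00000059552) spans 69471185 to 69482699 on chromosome 11, plus strand.

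The regulators of p53 did not move together. Mdm2, which is both the ligase that marks p53 for degradation and a p53 target, measured 22.6 and 32.7 CPM in the controls and 23.7 and 41.1 CPM in the MEIS2 libraries, so the lines overlapped (log2 fold change 0.23, SE 0.38, adjusted p 0.808). Mdm4, which binds p53 and blocks its activation domain, measured 13.9 and 24.4 CPM against 18.4 and 50.3 CPM. Only MEIS2 replicate 2 stood clear of the other libraries. The log2 fold change of Mdm4 was 0.84 (SE 0.46, adjusted p 0.565), and it was -0.09 without that library and -0.05 with the trend removed. Cdkn2a measured 458.3 and 464.3 CPM in the controls and 358.5 and 344.4 CPM in the MEIS2 libraries. Here the lines were parted by more than the replicates differed, at a log2 fold change of -0.39 with SE 0.30 (adjusted p 0.62) that held between -0.44 and -0.39 when any 1 library was left out. With the length and GC trend removed it was 0.0032. Cdkn2a has the shortest gene length of the members, 1172 bases, and a GC content of 60.2%.

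Levels per length showed how far apart the mRNAs of Trp53 and Mdm2 stood in all 4 libraries, which does not give their protein levels. Mdm2 per kb was 0.0337 and 0.0599 of Trp53 per kb in the controls and 0.0457 and 0.103 of it in the MEIS2 libraries. The highest of the 4 ratios was that of MEIS2 replicate 2, and MEIS2 replicate 1 lay between the controls.

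Among the 13 p53 targets of arrest, stress and feedback, 6 were higher, 7 lower and 0 past the threshold, with a median log2 fold change of -0.052. Both MEIS2 libraries were above both controls for 3 of them (23.1%) and below for 3 (23.1%). Among all tested genes these shares were 22.6% and 19.1%, so the targets were near the background. Cdkn1a, which encodes the cyclin-dependent kinase inhibitor p21, had the lowest p of this group. It measured 136.1 and 102.7 CPM in the controls and 93.9 and 73.1 CPM in the MEIS2 libraries. Both MEIS2 libraries lay below both controls, and the nearest libraries of the lines were closer than the replicates of either. The log2 fold change was -0.52 (SE 0.31, adjusted p 0.591), -0.41 with the trend removed, and from -0.73 to -0.31 when 1 library was left out.

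Other targets stood on both sides of 0. Phlda3, an inhibitor of AKT signalling, measured 106.2 and 89.2 CPM in the controls and 91.4 and 55.9 CPM in the MEIS2 libraries, with overlap between the lines (log2 fold change -0.41, SE 0.33, adjusted p 0.633), and -0.14 without MEIS2 replicate 2. Ei24, an endoplasmic reticulum protein, measured 88.4 and 85.6 CPM against 75.3 and 58.7 CPM (log2 fold change -0.38, SE 0.31, adjusted p 0.635). The nuclease gene Aen measured 51.7 and 51.6 CPM against 49.98 and 40.7 CPM, at a log2 fold change of -0.19. For Ei24 and Aen both MEIS2 libraries lay below both controls, in Aen by little in replicate 1.

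On the other side, Perp, which encodes a tetraspan membrane protein of desmosomes and p53-dependent apoptosis, measured 14.2 and 18.6 CPM in the controls and 21.1 and 23.2 CPM in the MEIS2 libraries. The lines did not overlap, and the log2 fold change was 0.43 (SE 0.37, adjusted p 0.648), or 0.50 with the trend removed. Sesn1, a stress-induced inhibitor of mTORC1, and Zmat3, an RNA-binding protein, also had both MEIS2 libraries above both controls, at log2 fold changes of 0.15 and 0.25. That of Zmat3 was -0.36 with the trend removed, and its gene length of 11.4 kb is among the longest of the members. Plk2, a polo-like kinase, had 142.2 and 119.2 CPM against 130.4 and 132.3 CPM, with a log2 fold change of 0.0077 with SE 0.30 (adjusted p 0.993) and overlap between the lines. Gadd45a, Trp53inp1, Ccng1, Eda2r and Btg2 overlapped between the lines, with log2 fold changes from -0.18 to 0.30.

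Neither of the death receptors that p53 can induce passed the threshold. Fas measured 3.26 and 3.45 CPM in the controls and 3.78 and 5.07 CPM in the MEIS2 libraries, from 50 to 85 counts per library, at a log2 fold change of 0.40 with SE 0.45 (adjusted p 0.725). Both MEIS2 libraries were above both controls, though in replicate 1 by a small margin, and the value was 0.13 without MEIS2 replicate 2. Tnfrsf10b, the mouse TRAIL receptor, measured 35.3 and 38.3 CPM against 41.0 and 35.1 CPM, with overlap and a log2 fold change of 0.050 with SE 0.33 (adjusted p 0.96).

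The prosurvival genes of the BCL2 family held the second-lowest p-value of all members, and 3 of the 4 had both MEIS2 libraries above both controls. Among all tested genes that share was 22.6%, and a count over 4 genes was not tested against it. None of the 4 passed the threshold. The median log2 fold change of the 4 was 0.66, and 0.36 with the trend removed. Bcl2l2, which encodes BCL-W, measured 8.15 and 9.29 CPM in the controls and 15.2 and 21.3 CPM in the MEIS2 libraries, from 125 and 151 against 238 and 358 counts. The level was 2.10-fold higher (log2 fold change 1.07, SE 0.39, adjusted p 0.336). It was 1.08 on the log2 scale with the trend removed and 0.77 to 1.28 when 1 library was left out. The gap between the lines was about as wide as that between the MEIS2 replicates. A read-through gene model, Gm20521, covers 4794 bases of Bcl2l2 on the same strand and had 0 counts in all libraries, and no source used here says how reads of such a transcript were assigned. Bcl2l2 (ENSMUSG00000089682) spans 55120834 to 55125691 on chromosome 14 of the table.

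Mcl1, a short-lived prosurvival protein, was the most abundant of the 4. It measured 139.6 and 151.4 CPM in the controls and 209.5 and 222.1 CPM in the MEIS2 libraries. The nearest libraries of the lines were several times further apart than replicates were. The log2 fold change was 0.57 (SE 0.30, adjusted p 0.547), 0.53 with the trend removed, and 0.49 to 0.62 when 1 library was left out. Bcl2 measured 9.12 and 10.3 CPM in the controls and 12.05 and 20.9 CPM in the MEIS2 libraries (log2 fold change 0.76, SE 0.41, adjusted p 0.56). Its value rested largely on MEIS2 replicate 2, being 0.27 without it, and was 0.20 with the trend removed. Bcl2l1, which encodes BCL-XL, overlapped between the lines, with 70.8 and 57.1 CPM against 69.6 and 43.5 CPM (log2 fold change -0.18, SE 0.34, adjusted p 0.834).

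**Figure D3:**
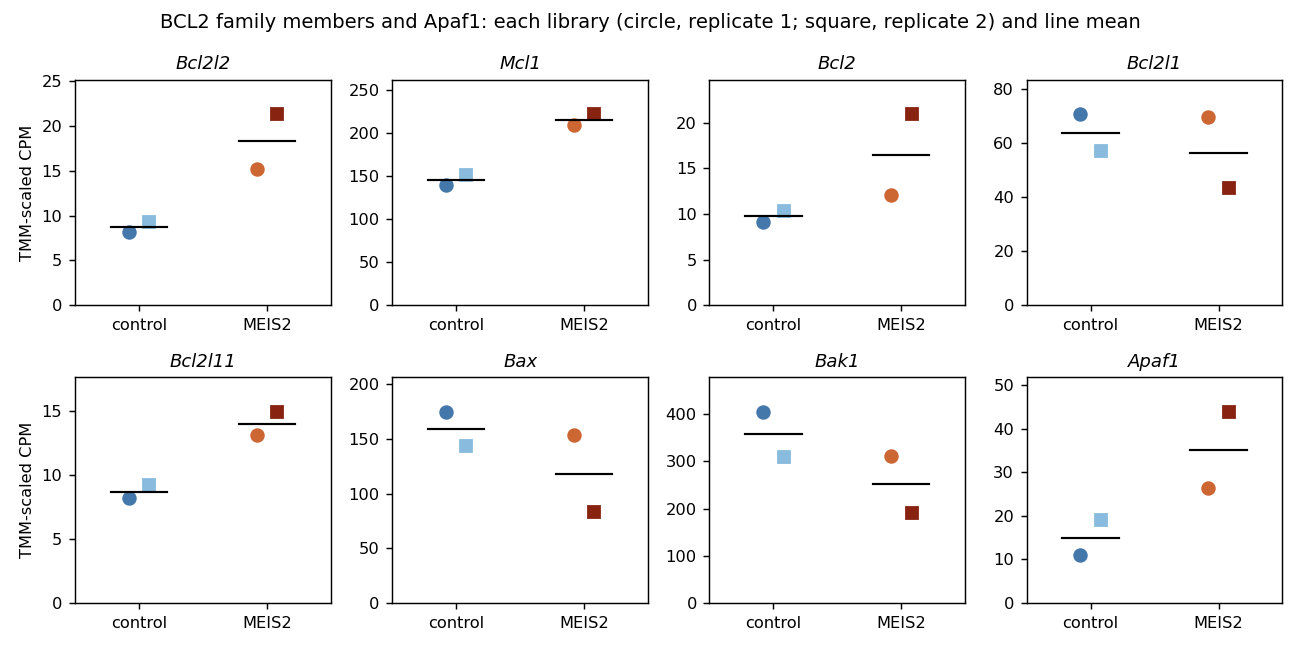
TMM-scaled CPM of 7 BCL2 family members and Apaf1 in each library (circles, replicate 1; squares, replicate 2), with the mean of each line as a bar; every axis starts at 0. In Bcl2l2, Mcl1, Bcl2, Bcl2l11 and Apaf1 both MEIS2 libraries lie above both controls, while Bcl2l1, Bax and Bak1 overlap between the lines. The genes shown are a selection. Of the tested BCL2 family members not shown, Bid has both MEIS2 libraries below both controls, and Bbc3, Bad and Bmf overlap. Both MEIS2 libraries lay above both controls for 22.6% of all tested genes and 26.3% of the tested members.

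The effectors and BH3-only genes were spread around 0, with 3 higher, 4 lower and 0 past the threshold among 7 tested, and a median log2 fold change of -0.089. Bak1 measured 405.0 and 309.7 CPM in the controls and 312.1 and 190.8 CPM in the MEIS2 libraries, and Bax 174.8 and 144.0 CPM against 153.7 and 82.9 CPM. In both effectors MEIS2 replicate 1 lay between the controls and MEIS2 replicate 2 below them. The log2 fold changes were -0.51 (SE 0.34, adjusted p 0.597) for Bak1 and -0.43 (SE 0.34, adjusted p 0.627) for Bax. Without MEIS2 replicate 2 they were -0.24 and -0.10, and with the trend removed -0.25 and -0.13.

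Bcl2l11, which encodes the BH3-only protein BIM, measured 8.21 and 9.23 CPM in the controls and 13.1 and 14.96 CPM in the MEIS2 libraries. The lines did not overlap, and they were further apart than the replicates. The log2 fold change was 0.69 (SE 0.39, adjusted p 0.577), 0.55 to 0.77 when 1 library was left out, and 0.26 with the trend removed. Bcl2l11 has a gene length of 8.03 kb. Bbc3, which encodes the p53-induced BH3-only protein PUMA, measured 16.6 and 17.5 CPM against 23.7 and 15.4 CPM, with overlap. Its log2 fold change of 0.20 became 0.51 with the trend removed and -0.16 without MEIS2 replicate 1. Bid, whose product carries the death receptor signal to mitochondria, measured 64.3 and 67.5 CPM against 61.8 and 62.2 CPM, at a log2 fold change of -0.089 with no overlap. Bid shares 913 bases with Bcl2l13 on the opposite strand, and Bad shares 620 bases with Gpr137 on the opposite strand. No source used here says whether strand was used in counting, so reads in those stretches cannot be told apart. Bad stood at a log2 fold change of -0.38, and at -0.022 without MEIS2 replicate 2, and Bmf at 0.24, both with overlap between the lines.

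Ratios within a library, taken per length and chosen after the values were seen, describe the balance of the family in mRNA only. Taking the controls first and replicate 1 before replicate 2, Bax over Bcl2 was 111.3, 80.9, 74.1 and 23.01. Bak1 over Mcl1, in the same order, was 4.12, 2.91, 2.12 and 1.22. Both ratios were lower in both MEIS2 libraries than in both controls, and in both the step between the MEIS2 replicates exceeded that between the nearest libraries of different lines. Bak1 over Bcl2l1 was 10.9 and 10.3 against 8.54 and 8.37, where the replicates lay closer to each other than to the other line. These genes differ in length and GC content, and with that trend removed the log2 fold changes were -0.13 for Bax, 0.20 for Bcl2, -0.25 for Bak1, 0.53 for Mcl1 and -0.12 for Bcl2l1.

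The apoptosome held the member with the lowest p of all. Apaf1, the scaffold that cytochrome c assembles into the apoptosome, measured 11.01 and 18.96 CPM in the controls and 26.4 and 43.9 CPM in the MEIS2 libraries, from 169 and 308 against 412 and 737 counts. Both MEIS2 libraries lay above both controls, with replicate 2 above replicate 1 in each line. The level was 2.35-fold higher (log2 fold change 1.23, SE 0.41, adjusted p 0.289). It was 0.70 on the log2 scale with the trend removed, 0.78 without MEIS2 replicate 2 and 1.66 without control replicate 2. Apaf1 (ENSMUSG00000019979) spans 90825173 to 90918632 on chromosome 10 of the table, minus strand. Its gene length in the table, 9.03 kb, is much shorter than that span.

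Cycs, the somatic cytochrome c gene, went the other way. It measured 85.5 and 99.3 CPM in the controls and 73.4 and 74.2 CPM in the MEIS2 libraries. The lines did not overlap, and the log2 fold change was -0.32 (SE 0.30, adjusted p 0.669), or -0.45 with the trend removed. Of 11 gene models at least 90% identical to part of Cycs, 3 had counts, 9.44% as many as Cycs itself. How reads shared with them were assigned is not known, so the count of Cycs is uncertain. Cycs over Apaf1, per length and likewise chosen after the values were seen, was 20.6 and 13.9 for the control replicates and 7.38 and 4.48 for the MEIS2 replicates, the latter both below the former.

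No caspase passed the threshold. Casp8, the initiator below the death receptors, measured 30.5 and 43.1 CPM against 34.0 and 44.2 CPM, with overlap (log2 fold change 0.087, SE 0.35, adjusted p 0.925). Casp9, the initiator that the apoptosome activates, measured 18.9 and 19.1 CPM against 22.9 and 18.3 CPM, at a log2 fold change of 0.12. The executioner Casp6 had a log2 fold change of -0.025. Casp2 measured 24.6 and 31.8 CPM against 38.4 and 33.4 CPM, with both MEIS2 libraries above both controls and a log2 fold change of 0.35 that was 0.016 with the trend removed. Of the regulators of caspases, Xiap, which binds and inhibits caspases, measured 31.7 and 43.7 CPM against 26.9 and 70.1 CPM. Its MEIS2 libraries lay on either side of both controls, and its log2 fold change of 0.36 was -0.33 with the trend removed and -0.52 without MEIS2 replicate 2. Diablo, whose product SMAC lifts that inhibition, stood at a log2 fold change of -0.33 with SE 0.44 (adjusted p 0.765), and its 92 and 142 control counts overlapped the 112 and 77 of the MEIS2 line. It was -0.07 without MEIS2 replicate 2.

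**Figure D4:**
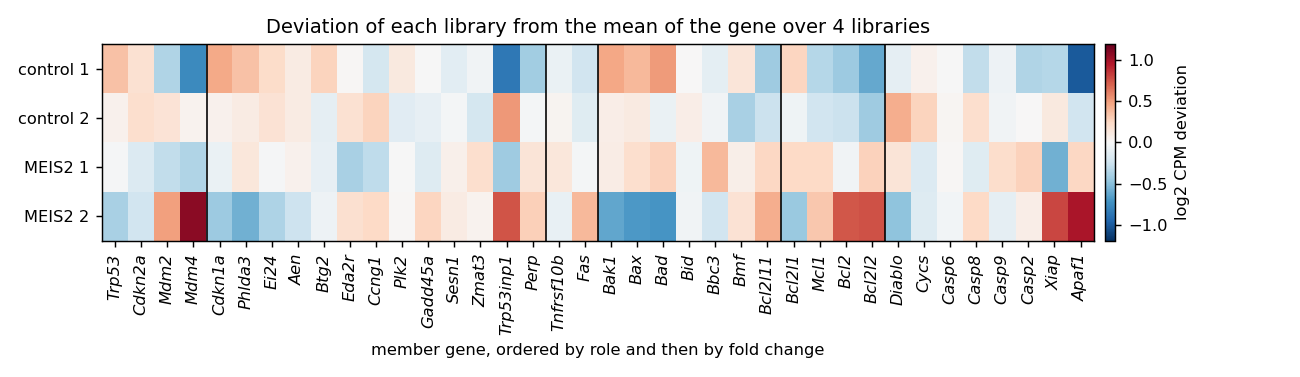
Deviation of each library from the mean of the gene over the 4 libraries, in log2 CPM, for the 38 tested members ordered by role group (black lines) and by fold change. MEIS2 replicate 2 stands far above the mean for Mdm4, Apaf1, Xiap, Bcl2l2, Bcl2 and Trp53inp1 and far below it for Bad, Bax, Bak1 and Phlda3; control replicate 1 stands far below it for Apaf1, Trp53inp1 and Mdm4.

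The differences within the list ran with the length and GC content of the genes. Over the 38 tested members Spearman's rho of the log2 fold change was 0.47 with gene length and -0.55 with GC content, and over all tested genes 0.49 and -0.42. Members and genes share the same 4 libraries, so these values describe the libraries and carry no test. Once the trend of each library with length and GC content was taken out, rho with length was -0.19 over the members and 0.041 over all tested genes. The trend was fitted without regard to line, so a difference between the lines that runs with length or GC content is removed with it. Meis2 itself went from 4.22 to 3.62 on the log2 scale and no longer passed the threshold. How much of any member's change on trend removal is of this kind was not tested. In that setting 15 members were higher and 23 lower, with a median of -0.10 against -0.07 for all tested genes, and 30 of 38 kept their sign. Bcl2l2, Apaf1, Mcl1, Bbc3 and Perp then had the highest log2 fold changes, from 0.50 to 1.08, and Eda2r, Ei24, Diablo and Cycs the lowest, from -0.52 to -0.45. Mitochondrial mRNAs, a sign of RNA quality, held 0.655% and 0.909% of control counts and 0.918% and 1.27% of MEIS2 counts, and their part in these values was not tested.

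**Figure D5:**
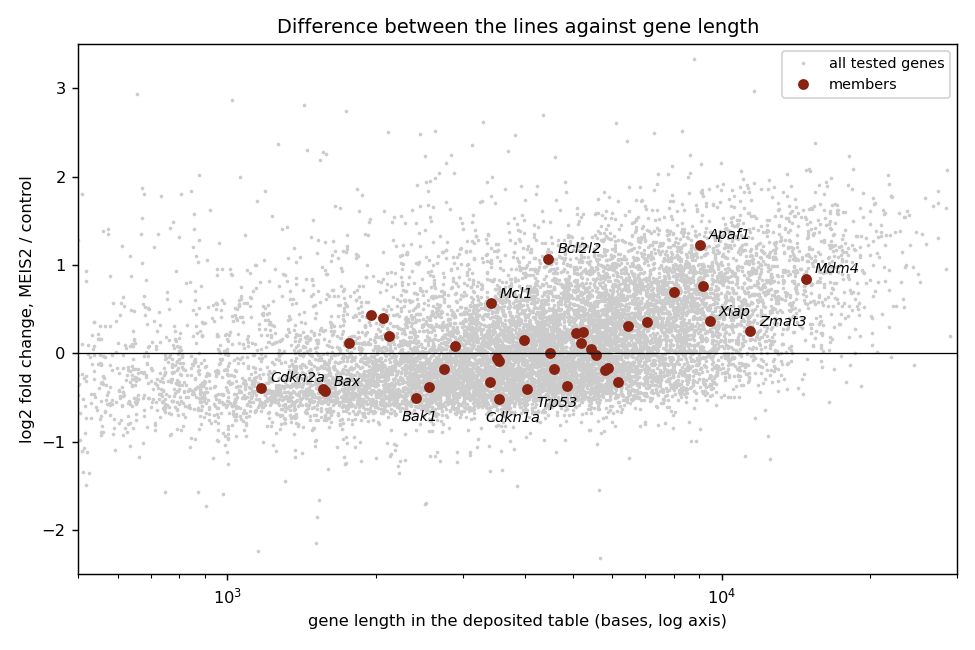
Log2 fold change, MEIS2 line over control line, against the gene length of the table on a log axis, for all tested genes (grey; 319 lie outside the axes) and the 38 tested members (red, some named). Short members such as Cdkn2a and Bax lie below 0 and long ones such as Apaf1 and Mdm4 above it, along the slope of the grey cloud, while Bcl2l2 and Mcl1 stand in the upper part of it, at 1.07 and 0.57.

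Genes of the wider pathway that are not on the list were read in 3 further lists, none of which held a gene past the threshold. Of 39 further p53 targets, 36 were tested, with 14 higher, 22 lower, 0 past the threshold and a median log2 fold change of -0.079. The ends of that range were Fbxw7, a subunit of a ubiquitin ligase, at 1.07 (SE 0.49, adjusted p 0.475) and the lipase Abhd4 at -0.59 (SE 0.31, adjusted p 0.558). Fbxw7 measured 3.84 and 4.43 CPM against 4.93 and 12.4 CPM and stood at 0.21 without MEIS2 replicate 2. Abhd4 measured 142.8 and 118.8 CPM against 102.4 and 71.1 CPM, with no overlap. Of 25 kinases, ligases and partners that act on p53, 23 were tested, with 13 higher, 10 lower, 0 past the threshold and a median of 0.074. Its ends were Atm, the kinase that signals DNA breaks to p53, at 1.37 (SE 0.49, adjusted p 0.313) and Ppp1r13l, the p53 inhibitor iASPP, at -0.66 (SE 0.35, adjusted p 0.559), from 78.6 and 47.8 CPM against 45.4 and 34.6 CPM. Atm measured 22.3 and 35.8 CPM in the controls and 32.4 and 117.9 CPM in the MEIS2 libraries, so its value rested on MEIS2 replicate 2 and was 0.12 without it. Hipk2, a kinase of p53, was chosen after the values were seen: it measured 21.4 and 24.8 CPM against 40.5 and 76.7 CPM, at 1.34 (SE 0.38, adjusted p 0.277), and 1.04 with the trend removed. Trp73 had 0 counts in every library and Trp63 at most 2, so the other members of the p53 family stayed under the floor.

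Of 33 further genes of the apoptosis machinery, 23 were tested, with 12 higher, 11 lower, 0 past the threshold and a median log2 fold change of 0.050. Birc6, a very large inhibitor of apoptosis with a gene length of 25.8 kb, stood highest at 1.75 (SE 0.38, adjusted p 0.256), from 39.6 and 55.3 CPM against 100.1 and 219.7 CPM. It was 0.60 with the trend removed, 1.04 without MEIS2 replicate 2 and 2.20 without MEIS2 replicate 1. Birc5, which encodes survivin, stood lowest at -0.46 (SE 0.31, adjusted p 0.597), from 145.4 and 130.1 CPM against 115.6 and 84.1 CPM. The BH3-only gene Hrk and the Bcl2a1 genes listed had 0 counts in every library.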

How the data were processed

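The deposited table holds whole-number read counts per gene, 1 column per library, with gene length in bases per the file headers. The headers do not say how that length was derived, and it is not the genomic span, being far shorter for Apaf1 and Mdm4. Per the submitters' processing notes DESeq2 was used, with no version. No source used here names the aligner, counter, strand setting or build. The members and lists were chosen with earlier results of these data known. In R 4.3.3, edgeR 4.0.16 kept genes by filterByExpr, scaled by TMM and tested the group term with the quasi-likelihood F test, with Benjamini-Hochberg adjustment over all 12802 tested genes. The SE was taken as the absolute log2 fold change over the root of F. CPM per kb uses the table's gene length. The libraries of a line differed beyond sampling noise, with chi-square over its degrees of freedom at 33.6 (control) and 87.3 (MEIS2). Each was counted as 1 replicate, though that spread does not show that they were grown apart.

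Members given in full are Trp53, Mdm2, Mdm4, Cdkn1a, the 2 with the highest level per kb and those with the highest and lowest fold change of each role, and the 5 with the lowest p-values, 21 in all. Of each further list the genes at both ends were named. Others were named after their values were seen. The trend setting subtracts a loess surface (span 0.5) of each library's deviation in log2 CPM (prior count 2) on log2 gene length and the GC content of the longest GENCODE M21 transcript, found for 98.9% of tested genes. The fit was run on simulated counts with known changes as a check of the code, which does not show how small a difference these libraries could reveal. BLAST+ 2.17.0 searched the same transcripts for copies of the members, keeping hits with 90% identity or more, 150 aligned bases or more and 50% of the copy or more covered. Alternatives were DESeq2 size factors, library size alone, no filter on low counts, DESeq2 1.42.0, the replicate number as a block, trend removal, both together, and leaving out each library.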

Additional observations from a re-analysis of the deposited data

How the results depend on the processing

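With 2 libraries a line, the number of genes past the threshold turned on the setting more than the fold changes did. It was 1 as reported, 271 with no filter on low counts, 62 by DESeq2, 0 with the length and GC trend removed, and 1 to 2411 when 1 library was left out. The 2411 came without MEIS2 replicate 1, which left a single MEIS2 library assumed to vary like the controls, and 4 came without MEIS2 replicate 2. With all 4 libraries and no block, no member passed in any setting. With the trend removed Meis2 did not pass either, at a log2 fold change of 3.62. A fit without 1 library rests on a single library of a line, so members past its threshold are not listed. Without MEIS2 replicate 1, 19 members were higher and 19 lower, and without MEIS2 replicate 2, 15 were higher and 23 lower. The median log2 fold change of the tested members was 0.020 with DESeq2 size factors, 0.22 with library size alone (all tested genes 0.17), 0.014 by DESeq2, -0.10 with the trend removed, and -0.081 to 0.080 when 1 library was left out.

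The sign of some values changed, among them Mdm4 (0.84 as reported) and Cdkn2a (-0.39). Plk2 stood at -0.051 with DESeq2 size factors, -0.034 with no filter, -0.057 by DESeq2 and -0.15 with the trend removed. Tnfrsf10b stood at -0.0015, -0.0072 and -0.16 with the size factors, by DESeq2 and with the trend removed. The trend removal also put Mdm2 at -0.010, Mdm4 at -0.055 and Cdkn2a at 0.0032. Leaving out 1 library gave ranges of -0.26 to 0.56 for Mdm2, -0.089 to 1.39 for Mdm4, -0.12 to 0.13 for Plk2, -0.080 to 0.12 for Tnfrsf10b, -0.58 to 0.079 for Bcl2l1 and -0.15 to 0.35 for Casp8. The cause was not tested.

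The labels do not say that equal replicate numbers pair the libraries. Over 12802 genes, replicate 2 minus replicate 1 of the controls and of the MEIS2 line correlated at r = 0.53. The replicate number as a block leaves 1 residual degree of freedom. With it, 2795 of the 12802 tested genes passed, and 9 of the 38 tested members, a share near that of all genes. The 9 were Mdm4, Cdkn1a, Bak1, Bax, Bcl2l11, Mcl1, Bcl2l2, Apaf1 and Bcl2. With the block and the trend removed 2969 of the 12802 genes and 9 of the 38 tested members passed, again near the share of all genes. They were not the same members. Of the members given in full, Trp53 (adjusted p 0.0215 in edgeR's test), Perp (0.0358) and Cycs (0.00584) did pass, and Mdm4, Bak1, Bax, Bcl2l11 and Bcl2 did not. Cdkn1a, Mcl1, Bcl2l2 and Apaf1 passed with and without the trend removed, and the rest of the 9 are not named here. There the members' median was -0.098, and Mdm2 stood at -0.018, Mdm4 at -0.057, Plk2 at -0.13 and Tnfrsf10b at -0.17.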
